A study of Homo sapiens with 24 samples.

Results

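A set of 10 genes that define the epithelial and mesenchymal states of a carcinoma cell were followed through 24 RNA-seq libraries of PEO1 and PEO4 cells. The set comprised the adhesion genes CDH1, EPCAM and CDH2, the mesenchymal genes VIM and FN1, and the transcription factors SNAI1, SNAI2, ZEB1, ZEB2 and TWIST1. They were chosen by name and not by a rule on their values, as 10 of the 28277 genes in each count table. Earlier results of these data were known at the time. PEO1 and PEO4 are high-grade serous ovarian carcinoma lines, labelled human ovarian adenocarcinoma, that came from 1 patient before and after chemotherapy resistance developed. PEO1 A carries the wild type label of the line as established, which lacks functional BRCA2 (BRCA2-), and PEO4 A, also labelled WT, is BRCA2+. PEO1 B is a PEO1 variant in which BRCA2 was restored by a spontaneous reversion mutation (BRCA2+), and PEO4 B is its WT partner. Both A lines were untreated, and each B line was untreated or given 5 µM pyridostatin (PDS), a small molecule that binds G-quadruplex DNA, for 2 or 6 h. Each of these 8 conditions had 3 libraries, described by the submitters as biological replicates. Each line is a single model from a single patient. Sodium pyruvate was added to the medium of the A pair. A separate library preparation was named for the A lines, which also had a count table of their own. None of these can be told apart from the difference between pairs.

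In the epithelial to mesenchymal transition (EMT), carcinoma cells lose junctions built on E-cadherin (CDH1) and may gain N-cadherin (CDH2), the intermediate filament protein vimentin (VIM) and the matrix glycoprotein fibronectin (FN1). The zinc finger factors of the SNAI and ZEB families bind E-box sequences and repress CDH1, and TWIST1 is a basic helix-loop-helix factor that acts in the same programme. The miR-200 family restrains ZEB1 and ZEB2 and is in turn repressed by them. Ovarian carcinomas often hold epithelial and mesenchymal features together.

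The promoters of the mesenchymal members that moved most are shown because PDS binds G-quadruplexes, which form where runs of guanine lie close together. Each is a 300-base window of RefSeq sequence (GRCh38.p14), 250 bases before a RefSeq start to 50 after it, with runs of 3 or more G on the gene's strand in capitals. The VIM and FN1 windows reach across the outer end of the gene, whereas the CDH2 window, 1 of 2 for that gene, lies inside the gene's annotated span and so does not show its outermost start.
VIM, chr10:17227991-17228290, plus strand: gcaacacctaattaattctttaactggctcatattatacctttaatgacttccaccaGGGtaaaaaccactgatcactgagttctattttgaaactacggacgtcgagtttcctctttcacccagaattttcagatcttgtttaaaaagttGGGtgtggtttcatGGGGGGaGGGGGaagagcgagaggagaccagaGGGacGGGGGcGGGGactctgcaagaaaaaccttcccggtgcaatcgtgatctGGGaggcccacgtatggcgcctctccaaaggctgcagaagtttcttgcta
FN1, chr2:215436019-215436318, minus strand: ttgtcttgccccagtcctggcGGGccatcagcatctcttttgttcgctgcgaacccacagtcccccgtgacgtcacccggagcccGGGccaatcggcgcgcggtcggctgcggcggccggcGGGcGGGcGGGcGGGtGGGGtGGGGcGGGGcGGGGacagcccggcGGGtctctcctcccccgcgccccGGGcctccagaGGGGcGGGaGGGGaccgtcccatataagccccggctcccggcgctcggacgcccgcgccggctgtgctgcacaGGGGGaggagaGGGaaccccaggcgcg
CDH2, chr18:28177081-28177380, minus strand: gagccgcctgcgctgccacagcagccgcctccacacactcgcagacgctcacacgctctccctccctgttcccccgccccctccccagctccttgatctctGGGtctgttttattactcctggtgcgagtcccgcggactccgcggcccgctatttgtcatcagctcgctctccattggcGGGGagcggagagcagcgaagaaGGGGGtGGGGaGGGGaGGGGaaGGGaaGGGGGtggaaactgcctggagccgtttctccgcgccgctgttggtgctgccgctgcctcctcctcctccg

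The pattern searched was 4 runs of GGG or longer separated by 1 to 7 bases, on either strand. It was present in 25.0% of the 35116 promoter windows. FN1 held 2 matches on its own strand, and this CDH2 window held 2, 1 on each strand, while the other CDH2 window held none. Of the 7 ZEB1 windows 1 held the pattern, and the 1 ZEB2 window did not. VIM held none, although 8 runs of G lay in its window. The E-box CAGGTG, searched on both strands and present in 20.6% of all windows, was absent from these 3 windows and present in 2 of the 7 ZEB1 windows. Windows were at hand for 5 of the 10 genes, and those of CDH1, EPCAM, SNAI1, SNAI2 and TWIST1 were not among them. A match describes letters in a window and is not a measured G-quadruplex or binding site.

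Library totals ran from 18699929 to 63882077 counts. In the B pair the untreated libraries held 18699929 to 22375644 counts and the PDS libraries 33260167 to 43713947, and genes of ribosomal RNA took 0.217% to 0.474% of counts in the former and 0.0163% to 0.0369% in the latter. Depth and rRNA share therefore move with treatment in every PDS comparison, and their part in it cannot be told apart from that of PDS. All 7 ovarian carcinoma markers (among them PAX8, WT1 and MUC16) were detected in each condition. Of the markers of other cells, CD3E had 0 counts in every library, PTPRC at most 2 and the fibroblast gene LUM at most 8, whereas CD68 and CD14 of the leukocyte list and THY1 of the fibroblast list were well above 0 in every condition. Levels are given as CPM, counts scaled by TMM to a common library size, and a gene is called where edgeR's quasi-likelihood test gave a Benjamini-Hochberg adjusted p under 0.05 and a log2 fold change beyond 1 in size. The standard error (SE) of a log2 fold change, in text and figures, is its size divided by the square root of the test's F statistic. It comes from the fitted model and is not the spread of the libraries compared. In bulk RNA, fewer cells of a kind and less RNA per cell cannot be told apart.

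Per kilobase of the MANE Select transcript, EPCAM, an epithelial adhesion molecule, stood first of the 10 members in PEO1 A, PEO1 B and PEO4 B before treatment. Its level was 315 ± 11.6 CPM per kb (SD, n = 3) in PEO1 A, 202 ± 12.8 in untreated PEO1 B and 257 ± 12.04 in untreated PEO4 B. VIM stood second in PEO1 A at 140 ± 8.48 CPM per kb and behind EPCAM, FN1 and CDH1 in untreated PEO1 B at 6.56 ± 0.545. ZEB1 and ZEB2 stood last in each of these conditions. In PEO4 A, EPCAM was again first, at 334 ± 21.8 CPM per kb, and CDH1 second at 30.9 ± 0.866, but VIM stood seventh at 0.282 ± 0.156 and SNAI2 last. Transcripts of EPCAM and CDH1 were thus present beside those of VIM in PEO1 A, PEO1 B and PEO4 B, and with little VIM in PEO4 A.

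The first comparison asks how the resistant line differed from the sensitive line as established. In PEO4 A the mesenchymal members were lower, and the epithelial adhesion members differed little. Of the 8 members tested, 4 were called lower (CDH2, VIM, FN1 and SNAI2) and 0 higher, where 25.8% of all 15882 genes tested were called, 13.1% lower and 12.6% higher. The libraries of the lines did not overlap for 6 of the 8, all lower in PEO4 A, as they did not for 67.9% of all genes. The members had a median change of -1.38 on the log2 scale, beside -0.0061 over all genes.

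VIM was at 322, 289.5 and 291 CPM in PEO1 A and at 0.370, 0.993 and 0.459 CPM in PEO4 A. No PEO4 A library came near a PEO1 A library, and the 3 PEO4 A libraries held 24, 35 and 15 counts. The log2 fold change was -9.05 (SE 0.219, edgeR adjusted p = 4.1e-10). VIM lies at chr10:17228241-17237593 on the plus strand (hg38), overlapped by the antisense gene VIM-AS1. VIM-AS1 was at 5.47 ± 0.476 CPM in PEO1 A and 0.0701 ± 0.0195 in PEO4 A (SD, n = 3). The strand setting of the counting was not given in the sources used here, so reads of the overlap cannot be assigned between them.

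FN1 (chr2:215360440-215436073, minus strand) was at 375, 481 and 439 CPM in PEO1 A and at 19.0, 29.4 and 30.6 CPM in PEO4 A. The groups lay far apart, with a log2 fold change of -4.04 (SE 0.196, edgeR adjusted p = 3.1e-07). CDH2 (chr18:27932879-28177946, minus strand), the cadherin gained in a cadherin switch, was at 8.20, 10.01 and 9.996 CPM in PEO1 A and 2.14, 1.64 and 1.90 CPM in PEO4 A. The groups did not overlap, and the log2 fold change was -2.30 (SE 0.176, edgeR adjusted p = 2.1e-07).

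SNAI2 (chr8:48917598-48921740, minus strand), which encodes the repressor SLUG, had 140, 86 and 100 counts in PEO1 A and 2, 0 and 0 counts in PEO4 A. The ratio was 156-fold lower in PEO4 A, with an exact 95% counting interval of 42.9 to 1296 that covers counting error only. SNAI1 (chr20:49982980-49988886, plus strand), which encodes SNAIL, was at 5.90, 7.53 and 6.28 CPM in PEO1 A and 4.19, 4.96 and 5.20 CPM in PEO4 A. These groups did not overlap, but the log2 fold change of -0.46 (SE 0.166, edgeR adjusted p = 0.029) fell short of the fold threshold.

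CDH1 (chr16:68737292-68835537, plus strand) was at 198, 199 and 179.8 CPM in PEO1 A and 146, 154 and 146 CPM in PEO4 A. Its level was lower in each PEO4 A library, by a log2 fold change of -0.37 (SE 0.0718, edgeR adjusted p = 0.00066), short of the fold threshold. EPCAM (chr2:47345158-47387601, plus strand) was at 488 ± 17.9 and 516 ± 33.7 CPM (SD, n = 3), and TWIST1 (chr7:19020991-19117636, minus strand) at 6.63 ± 0.568 and 7.77 ± 2.98 CPM. Neither passed the test. ZEB1 (chr10:31318495-31529814, plus strand) had 10 to 18 counts a library in PEO1 A and 2 to 6 in PEO4 A, and ZEB2 (chr2:144364364-144521057, minus strand) 0 to 8 and 0 to 6. Both failed the filter on low counts in this table.

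The second comparison sets untreated PEO4 B against PEO1 B, with BRCA2 functional in both lines. Of the 9 members tested, 2 were called lower (FN1 and SNAI2) and 0 higher, where 24.8% of all 17020 genes were called, 12.6% lower and 12.2% higher. The lines did not overlap for 5 of the 9 (2 higher and 3 lower), as for 68.5% of all genes. The members had a median change of -0.14 on the log2 scale, beside -0.0011 over all genes.

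FN1 was at 569, 690.3 and 901 CPM in PEO1 B and at 107, 153 and 145 CPM in PEO4 B. The groups were apart, with a log2 fold change of -2.42 (SE 0.169, edgeR adjusted p = 1.3e-08). SNAI2 was at 2.64, 1.65 and 2.37 CPM in PEO1 B and 0.260, 0.603 and 0.553 CPM in PEO4 B. Its groups were also apart, with a log2 fold change of -2.24 (SE 0.293, edgeR adjusted p = 2.6e-07).

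VIM was at 13.0, 15.4 and 14.0 CPM in untreated PEO1 B and at 8.36, 27.7 and 3.18 CPM in untreated PEO4 B. The PEO4 B libraries spanned the PEO1 B range, and the difference of -0.14 on the log2 scale (SE 0.497, edgeR adjusted p = 0.82) was within their spread. Without PEO4 B replicate 2 it was -1.28 (edgeR adjusted p = 0.0041) and would be called. That library was also the highest of the 3 for COL1A2, at 17.3 CPM against 5.07 and 1.80, and for CD44, at 140 CPM against 83.9 and 51.3, although not for COL3A1, at 6.23 against 6.62 and 7.56.

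Of the other members, CDH1, CDH2, EPCAM and SNAI1 passed the adjusted p but not the fold threshold in the B pair. EPCAM was at 312 ± 19.7 CPM in PEO1 B and 397 ± 18.6 in PEO4 B (SD, n = 3, log2 fold change 0.35, edgeR adjusted p = 1.4e-05). SNAI1 was at 2.88 ± 0.559 CPM in PEO1 B and 4.74 ± 1.70 in PEO4 B (SD, n = 3). TWIST1 and ZEB1 did not pass the test.

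**Figure D1:**
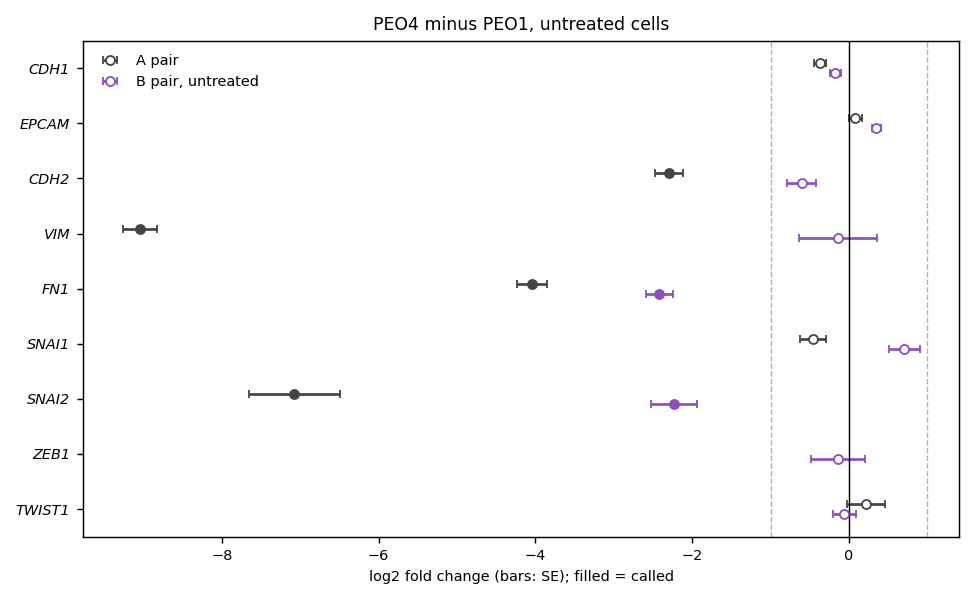
Log2 fold change of PEO4 over PEO1 (x axis) for the 9 members that passed the filter in at least 1 table (y axis), in the A pair and the untreated B pair, with standard errors as bars, called genes filled and dashed lines at a log2 fold change of 1 in either direction. VIM lay at -9.05 in the A pair and -0.14 in the B pair, while FN1 and SNAI2 were lower in PEO4 in both.

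The line difference itself was compared between pairs in a joint fit of the 12 untreated libraries, which was added after the data had been seen. It was more negative in the A pair for 6 of 9 members tested (CDH2, VIM, FN1, SNAI1, SNAI2 and ZEB1), where 13.8% of all genes were called, 8% in that direction and 5.79% in the other. For VIM the difference of differences was -8.91 on the log2 scale (SE 1.002, edgeR adjusted p = 0.00018), and for CDH2 it was -1.69 (SE 0.268, edgeR adjusted p = 0.00013). The ZEB1 value of -1.98 (SE 0.685, edgeR adjusted p = 0.031) rested on few counts and lost its call on leaving out any of 7 single libraries, namely PEO1 A replicates 2 and 3, PEO4 A replicates 2 and 3, PEO1 B replicates 2 and 3 and PEO4 B replicate 1, with values from -2.05 to -1.65. The SNAI1 call of -1.17 was lost without PEO4 B replicate 2, at -0.85. BRCA2 status, medium, library preparation and count table differ together between the pairs and cannot be told apart. CTNND1 was at 14.2 and 17.6 CPM on average in PEO1 A and PEO4 A. In untreated PEO1 B and PEO4 B it was at 340 and 339 CPM. VIM-AS1 was at 5.47 CPM beside 301 for VIM in PEO1 A, and at 6.71 beside 14.1 in untreated PEO1 B. Whether genes were counted alike in both tables was not tested.

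**Figure D2:**
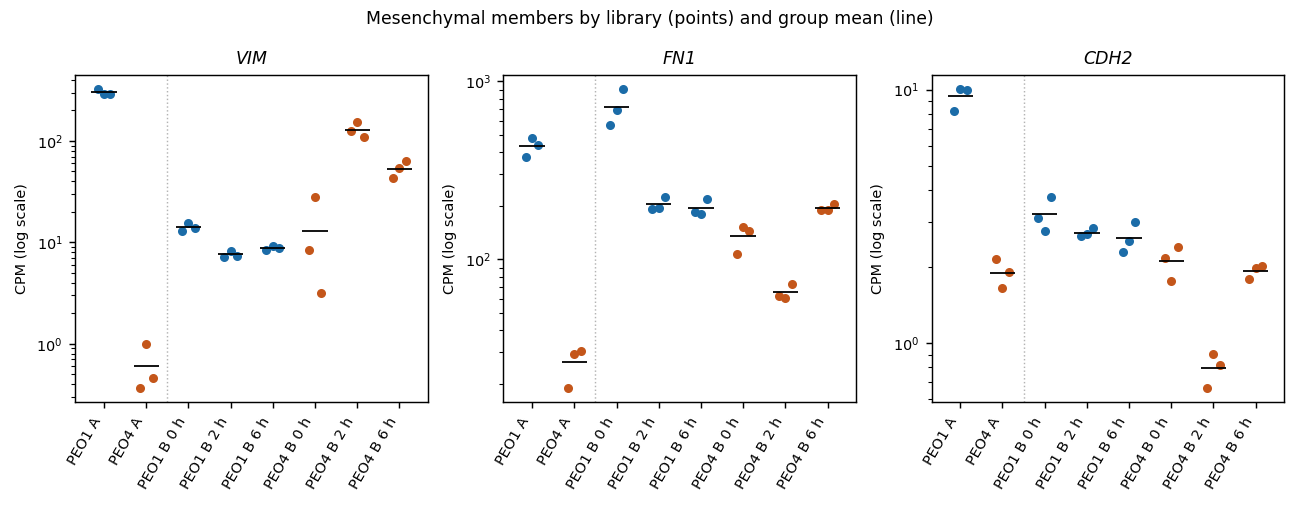
CPM on a log axis of VIM, FN1 and CDH2 in each library (points) with the group mean (line), for the 8 conditions, with 0 h for untreated and the dotted line between the tables of the A and B lines. VIM was near 301 CPM in PEO1 A, spread from 3.18 to 27.7 in untreated PEO4 B and was at 108 to 153 in PEO4 B after 2 h of PDS.

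The third set of comparisons asks how PDS changed these genes in each B line. In PEO1 B, FN1 fell and SNAI2 rose at both times. These were 2 of 9 members called at 2 h, where 7.57% of all genes were called (1.18% higher and 6.39% lower), and 2 of 9 at 6 h, where 8.13% were (1.29% higher and 6.83% lower). Treated and untreated libraries did not overlap for 4 members at 2 h and 5 at 6 h, as for 61.8% of all genes at 2 h and 61.8% at 6 h. Between 2 and 6 h 0 of 9 members were called, where 0.17% of all genes were (0.0705% higher and 0.0999% lower), and 2 did not overlap, where 31.3% of all genes did not, with 1 of 9 members (SNAI1) at an unadjusted p under 0.05 in edgeR and 0 called by DESeq2.

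FN1 in PEO1 B was at 192, 194 and 224 CPM after 2 h and 184, 180.05 and 218 CPM after 6 h, from 569, 690.3 and 901 CPM before. Every treated library lay below every untreated one. The log2 fold change was -1.82 at 2 h (SE 0.164, edgeR adjusted p = 6.2e-07) and -1.89 at 6 h (SE 0.164, edgeR adjusted p = 3.9e-07). SNAI2 was at 7.81, 7.71 and 6.06 CPM after 2 h and 5.67, 6.52 and 6.34 CPM after 6 h, from 2.64, 1.65 and 2.37 CPM. Every treated library lay above every untreated one, with log2 fold changes of 1.70 (SE 0.185, edgeR adjusted p = 4.3e-08) and 1.48 (SE 0.187, edgeR adjusted p = 3.7e-07).

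VIM in PEO1 B was at 7.21, 8.27 and 7.37 CPM after 2 h and 8.41, 9.16 and 8.72 CPM after 6 h. All 6 treated libraries were below the lowest untreated library at 13.0 CPM, yet neither time passed the test. The log2 fold change was -0.89 at 2 h (SE 0.498, edgeR adjusted p = 0.16) and -0.69 at 6 h (SE 0.491, edgeR adjusted p = 0.26). Both were also short of the fold threshold. The fit shares 1 estimate of the spread with the variable PEO4 B libraries, and the part of this in the result was not tested.

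In PEO4 B, PDS was followed by a rise of VIM at both times, a rise of SNAI1 at 2 h, and by lower CDH2 and FN1 at 2 h but not at 6 h. At 2 h 4 of 9 members were called, 2 in each direction, where 17.4% of all genes were (6.4% higher and 11% lower), and 6 did not overlap, where 64.2% of all genes did not. At 6 h 1 of 9 was called, higher, where 22.6% were (6.26% higher and 16.3% lower), and 5 did not overlap, where 72.2% did not. Between 2 and 6 h 3 of 9 were called, 2 higher and 1 lower, where 12% were (2.27% higher and 9.71% lower), and 8 did not overlap, where 68% did not.

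VIM in PEO4 B was at 127, 153 and 108 CPM after 2 h and at 42.7, 53.8 and 63.1 CPM after 6 h, from 8.36, 27.7 and 3.18 CPM. Neither treated group overlapped the untreated one, or each other. The log2 fold change was 3.33 at 2 h (SE 0.453, edgeR adjusted p = 2.5e-05) and 2.05 at 6 h (SE 0.451, edgeR adjusted p = 0.0012). The 6 h call was lost when only the compared groups were fitted (log2 fold change 2.02, edgeR adjusted p = 0.061), and leaving out 1 library moved the 2 h value between 2.87 and 4.47 and the 6 h value between 1.59 and 3.20, the higher end in both without untreated PEO4 B replicate 2. From 2 to 6 h VIM fell by 1.28 on the log2 scale (SE 0.389, edgeR adjusted p = 0.012), a call lost without PEO4 B 6 h replicate 1, at -1.14 (edgeR adjusted p = 0.055). VIM-AS1 was at 7.15 ± 7.13, 55.0 ± 9.24 and 23.2 ± 3.91 CPM (SD, n = 3) at 0, 2 and 6 h, and was called higher at both times.

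SNAI1 in PEO4 B was at 13.2, 11.8 and 12.3 CPM after 2 h and 7.77, 8.39 and 8.98 CPM after 6 h, from 3.98, 6.68 and 3.55 CPM. Both treated groups lay above all untreated libraries. The log2 fold change was 1.40 at 2 h (SE 0.159, edgeR adjusted p = 3.6e-08), and at 6 h it was 0.83 (SE 0.163, edgeR adjusted p = 7.3e-05), short of the fold threshold. Without untreated PEO4 B replicate 2 the 6 h value was 1.16 and would be called.

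CDH2 in PEO4 B was at 0.667, 0.906 and 0.816 CPM after 2 h and 1.79, 1.98 and 2.01 CPM after 6 h, from 2.16, 1.76 and 2.40 CPM. The 2 h libraries were the lowest, and the 6 h libraries overlapped the untreated ones. The log2 fold change was -1.40 at 2 h (SE 0.206, edgeR adjusted p = 1.9e-06) and 1.27 from 2 to 6 h (SE 0.195, edgeR adjusted p = 5.0e-06). FN1 was at 62.2, 60.8 and 73.0 CPM after 2 h and 189, 189.5 and 204 CPM after 6 h, from 107, 153 and 145 CPM. It was lowest at 2 h and highest at 6 h with no overlap among the 3 groups. The 2 h log2 fold change of -1.04 (SE 0.166, edgeR adjusted p = 7.9e-05) sat at the fold threshold, and without PEO4 B 2 h replicate 2, untreated replicate 2 or untreated replicate 3 it was -0.99, -0.94 or -0.98. The rise from 2 to 6 h was 1.57 (SE 0.166, edgeR adjusted p = 2.0e-06).

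**Figure D3:**
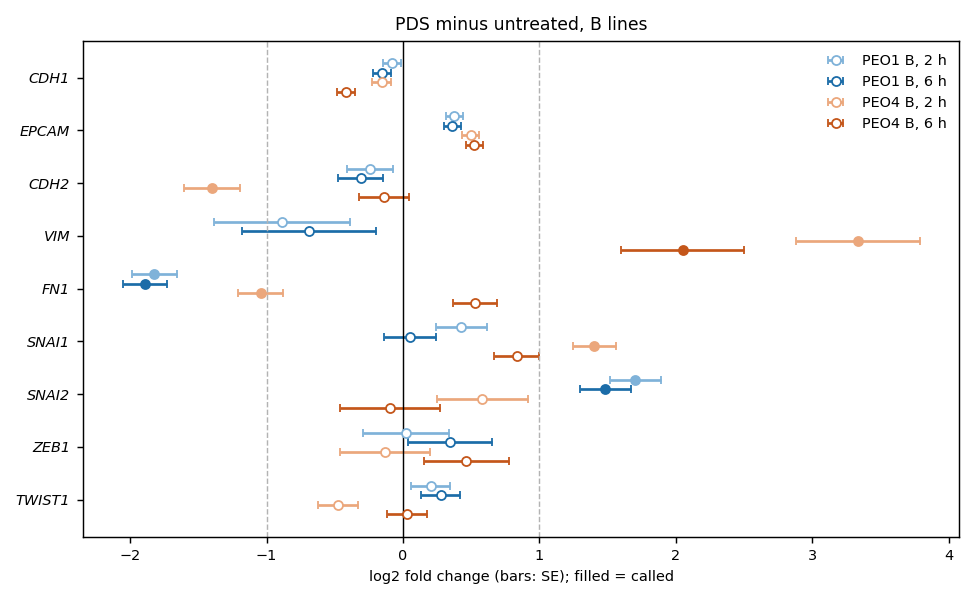
Log2 fold change of PDS over untreated (x axis) for the 9 members tested (y axis) in PEO1 B and PEO4 B at 2 and 6 h, with standard errors as bars, called genes filled and dashed lines at a log2 fold change of 1 in either direction. FN1 at 6 h lay at -1.89 in PEO1 B and 0.53 in PEO4 B, and VIM at 2 h at -0.89 and 3.33.

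The epithelial adhesion members moved less. EPCAM was higher after PDS in both lines, by 0.38 and 0.36 on the log2 scale in PEO1 B and 0.50 and 0.52 in PEO4 B, each past the adjusted p and none past the fold threshold. In PEO4 B its 6 h libraries were at 570.4, 569 and 573 CPM, above the untreated 400.3, 414 and 377 CPM. CDH1 in PEO4 B was at 99.7, 100.4 and 99.95 CPM after 6 h, from 134, 116 and 151 CPM. Each 6 h library was below each untreated one, with a log2 fold change of -0.42 (SE 0.0692, edgeR adjusted p = 8.2e-06) that was short of the fold threshold. When libraries were scaled by their totals and not by TMM, the median of all genes moved by -0.13 to -0.16 in the comparisons of PDS with untreated cells.

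**Figure D4:**
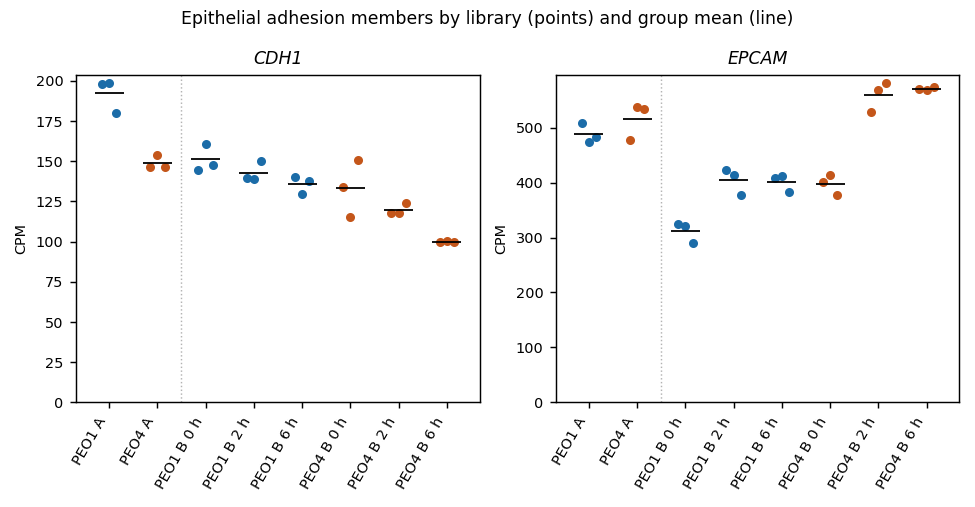
CPM of CDH1 and EPCAM in each library (points) with the group mean (line), for the 8 conditions, on axes from 0, with 0 h for untreated. EPCAM lay between 377 and 414 CPM in untreated PEO4 B and between 528 and 582 CPM after 2 h.

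Of the remaining factors, ZEB1 and ZEB2 were low throughout. TWIST1 was called in none of these comparisons, with group means between 4.04 and 7.77 CPM. In PEO4 B it passed the adjusted p, but not the fold threshold, at 2 h and from 2 to 6 h. The log2 fold change was -0.48 at 2 h (edgeR adjusted p = 0.0070). From 2 to 6 h it was 0.51 (edgeR adjusted p = 0.0032), and neither comparison had overlapping libraries. Its 2 h response differed between the lines by -0.68 (PEO4 B minus PEO1 B, edgeR adjusted p = 0.011). ZEB1 had group means of at most 1.04 CPM, and ZEB2 had 0 to 8 counts a library, so a change of either was not detectable at this depth unless large. ZEB1 is overlapped by ZEB1-AS1. MIR200CHG, the host transcript of miR-200c and miR-141, which target the ZEB genes, was called higher in PEO1 B after PDS, from 0.501 ± 0.353 CPM to 1.60 ± 0.0536 at 2 h and 1.62 ± 0.454 at 6 h (SD, n = 3). Without untreated PEO1 B replicate 2 the 6 h log2 fold change of 1.66 was 2.44. In PEO4 B it went from 0.591 ± 0.395 CPM to 1.15 ± 0.238 at 2 h and 1.01 ± 0.0756 at 6 h (SD, n = 3), with log2 fold changes of 0.98 (edgeR adjusted p = 0.027) and 0.81 (edgeR adjusted p = 0.066), neither called. The response did not pass the test of a difference between the lines, at -0.66 (SE 0.554, edgeR adjusted p = 0.37) and -0.85 (SE 0.557, edgeR adjusted p = 0.22). The mature miRNAs were not measured. Their sequences (RefSeq, GRCh38.p14, seed at bases 2 to 8 in capitals) are given because their seeds differ.
miR-200c-3p, chr12:6963742-6963764: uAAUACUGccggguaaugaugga
miR-141-3p, chr12:6964155-6964176: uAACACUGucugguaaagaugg

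**Figure D5:**
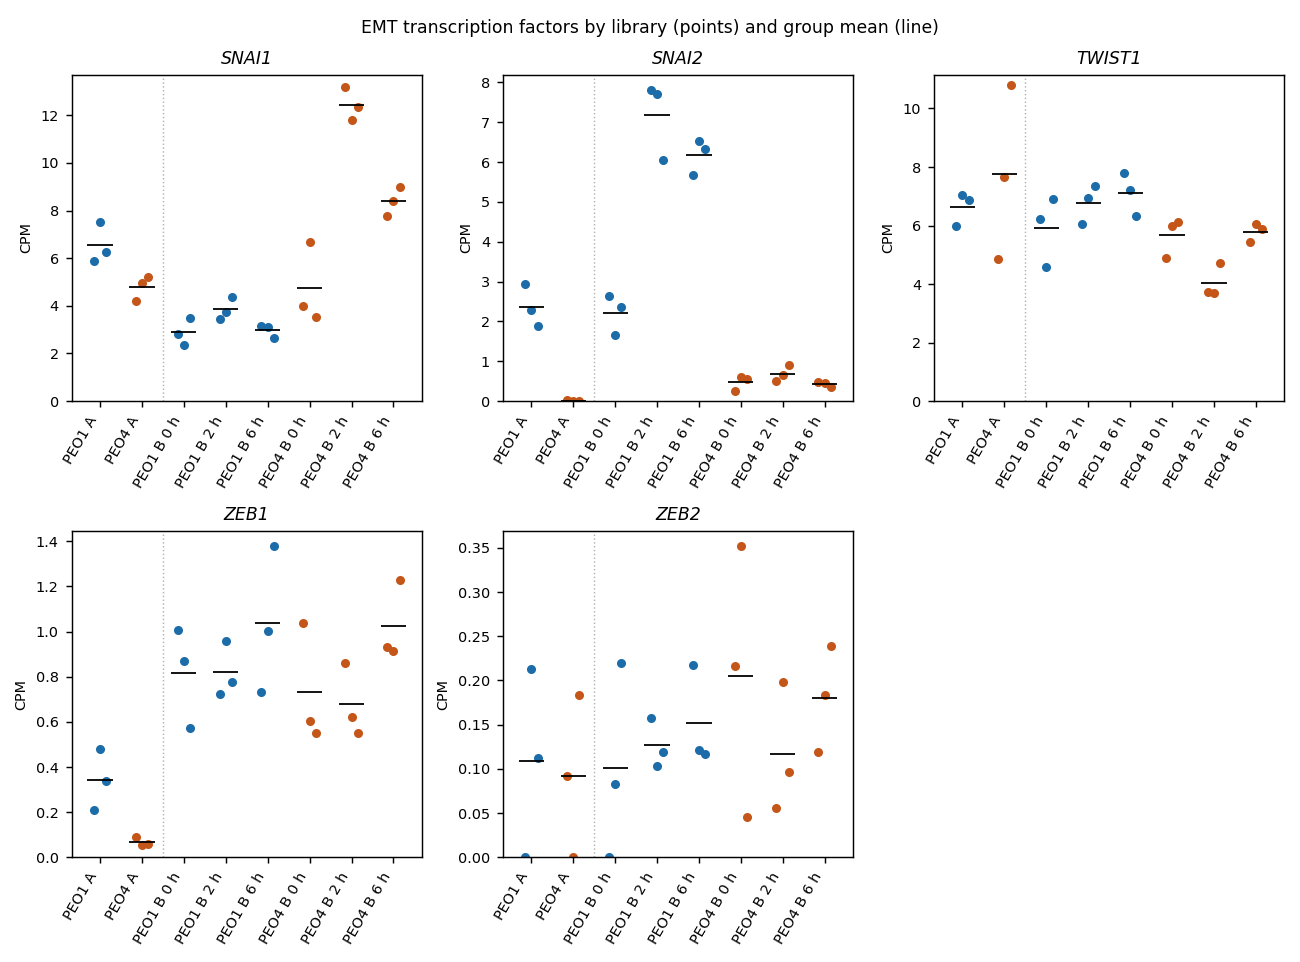
CPM of the 5 transcription factors in each library (points) with the group mean (line), for the 8 conditions, on axes from 0, with 0 h for untreated. SNAI2 reached 6.06 to 7.81 CPM in PEO1 B after 2 h and stayed under 1 CPM in each PEO4 library, whereas SNAI1 reached 11.8 to 13.2 CPM in PEO4 B after 2 h.

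The PDS responses of the lines were compared directly by an interaction term. At 2 h 3 of 9 members differed, where 11% of all genes did (6.1% higher in PEO4 B and 4.92% lower). The response of VIM was higher in PEO4 B by 4.22 on the log2 scale (SE 0.671, edgeR adjusted p = 0.00030), and that of CDH2 was lower by a value of -1.16 (SE 0.265, edgeR adjusted p = 0.0012). The SNAI2 value of -1.12 (SE 0.403, edgeR adjusted p = 0.031) lost its call without any of 6 single libraries (PEO1 B untreated replicate 2, PEO1 B 2 h replicate 2, PEO4 B untreated replicates 2 and 3, and PEO4 B 2 h replicates 1 and 2), with values of -1.09 to -0.92, and when only these groups were fitted. At 6 h 3 of 9 differed, where 14.8% of all genes did (5.42% higher and 9.34% lower). VIM was higher by 2.74 (SE 0.667, edgeR adjusted p = 0.0045), FN1 was higher by 2.42 (SE 0.230, edgeR adjusted p = 1.6e-06), and SNAI2 was lower at -1.58 (SE 0.425, edgeR adjusted p = 0.0036). Leaving out 1 library moved the VIM value between 3.76 and 5.35 at 2 h and between 2.28 and 3.88 at 6 h, the higher end in both without untreated PEO4 B replicate 2. SNAI1 passed the adjusted p at both times, at 0.98 and 0.78, but not the fold threshold, and at 2 h it would be called without PEO1 B 2 h replicate 3, PEO1 B untreated replicate 2, PEO4 B 2 h replicate 2 or PEO4 B untreated replicate 2, at 1.01 to 1.29. At 6 h it would be called without PEO4 B untreated replicate 2, at 1.10.

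Wider lists of the programme placed the members among their neighbours. All their counts are read beside 12.6% of all genes called higher and 13.1% lower in PEO4 A, and 12.2% higher and 12.6% lower in untreated PEO4 B. Of 22 epithelial adhesion genes, 1 was called higher and 3 lower among 22 tested in PEO4 A, and 2 higher and 2 lower among 21 tested in untreated PEO4 B. CDH3 (P-cadherin) was lower in PEO4 in both pairs, with log2 fold changes of -3.86 and -3.90, and LLGL2, a polarity protein, was higher at 1.43 and 1.10. The membrane mucin MUC1 had 14 counts in PEO4 A against 189 in PEO1 A, 12.9-fold lower with an exact 95% counting interval of 7.53 to 24.1. In the untreated B pair CTNNA1 (alpha-catenin) was higher at 1.07 and TJP1 (the tight junction protein ZO-1) lower at -1.19. The list's median log2 fold change was -0.035 in the A pair and -0.0026 in the B pair.

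Of 23 mesenchymal and matrix genes, 4 were higher and 12 lower among 21 tested in PEO4 A, and 8 higher and 11 lower among 22 tested in untreated PEO4 B, with medians of -1.83 and -1.02. TGFBI, a matrix protein induced by TGF-beta, was lower in PEO4 A with a log2 fold change of -7.88, whereas MMP14, a membrane metalloproteinase, was higher in both pairs at 3.80 and 8.37. COL1A2, a chain of type I collagen, was higher in PEO4 A at 3.93, from 0.175 CPM in PEO1 A to 2.68 in PEO4 A on average. COL3A1 (type III collagen) had 0 counts in untreated PEO1 B against 441 in PEO4 B, at least 154-fold higher against a floor of 3 counts over the group. CDH11, another mesenchymal cadherin, had 0 counts in PEO4 A against 382 in PEO1 A, at least 122-fold lower against the same floor. In the untreated B pair CDH11 had 3 counts in PEO4 B against 1543 in PEO1 B, 491-fold lower with an exact 95% counting interval of 168 to 2381, and LOXL2, a lysyl oxidase, was lower at -3.77. The mesenchymal genes thus moved in both directions, and 3 of them (COL1A1, COL1A2 and COL3A1) are also fibroblast markers.

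The summed level of the 7 fibroblast markers was 386 to 426 CPM in PEO1 A and 80.0 to 111 CPM in PEO4 A, and 110 to 133 CPM in untreated PEO1 B and 41.6 to 51.6 CPM in untreated PEO4 B. THY1 made up most of the sum in PEO1 A (377 CPM on average) but not in untreated PEO4 B. DCN and LUM had at most 22 and 8 counts in any library. Gene by gene the pairs differed in direction. In PEO4 A 1 marker was higher and 3 lower of 4 tested, with a median of -1.97. In untreated PEO4 B 3 were higher and 1 lower of 5 tested, with a median of 1.99. There COL1A1 was at 22.1 CPM against 5.56 in PEO1 B, whereas THY1 was at 8.65 CPM against 114. After PDS in PEO4 B the sum was 70.2 to 102 CPM at 2 h and 42.2 to 48.4 CPM at 6 h. THY1 was higher at both times, at 75.0 and 40.7 CPM, while COL1A1 and COL3A1 were lower at both. The list had 1 marker higher and 2 lower of 5 tested at 2 h, with a median of -0.89, and 1 higher and 3 lower at 6 h, with a median of -2.96. Of all genes 6.4% were called higher and 11% lower at 2 h, and 6.26% and 16.3% at 6 h. The medians over all genes were 0 and -0.028.

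The summed level of the 4 leukocyte markers, mostly from the lysosomal glycoprotein CD68, was 28.3 to 34.2 CPM in PEO1 A and 30.5 to 53.9 in PEO4 A. In the B pair it was 38.8 to 41.6 CPM in untreated PEO1 B, 45.2 to 48.9 at 2 h and 46.3 to 48.3 at 6 h, and 33.8 to 57.1 CPM in untreated PEO4 B, 73.4 to 83.8 at 2 h and 70.2 to 79.6 at 6 h. CD68 was at 42.4, 72.4 and 72.4 CPM on average in PEO4 B at 0, 2 and 6 h, short of the fold threshold. CD14 was called lower in PEO4 in both pairs (5.35 CPM in PEO1 A against 1.06, and 5.08 in untreated PEO1 B against 2.00) and higher in PEO4 B at 2 h, at 5.90 CPM. The part of fibroblast or leukocyte transcripts in the results was not tested.

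Among 12 other EMT transcription factors, 2 were higher and 4 lower of 9 tested in PEO4 A, and 0 higher and 4 lower of 10 tested in untreated PEO4 B, with medians of -0.79 and -0.52. In PEO4 A HMGA2, a chromatin architectural protein, was higher at 1.07, a call lost without PEO4 A replicate 2, at 0.98. TWIST2, the relative of TWIST1, was lower there at -2.17, and KLF8, a Krueppel-like factor, was lower in untreated PEO4 B at -1.98. FOXC2, a forkhead factor, had 0 counts in PEO4 in both pairs, at least 31.0-fold lower than PEO1 in the A pair and 26.7-fold in the B pair. Of the 11 epithelial-state factors, 1 was higher and 3 lower in PEO4 A and 2 higher and 2 lower in untreated PEO4 B, with medians of 0.50 and 0.17. EHF, an epithelial ETS factor, was lower in both at -4.13 and -3.43, as was MIR205HG, the host transcript of miR-205, at -2.03 and -2.81. OVOL1, which opposes EMT, was higher in both at 1.22 and 1.62, and GRHL3, a grainyhead-like factor, was higher in untreated PEO4 B at 1.68.

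After 6 h of PDS in PEO4 B, where 6.26% of all genes were called higher and 16.3% lower, 7 mesenchymal and matrix genes were higher and 7 lower of 22 tested, with a median of 0.51 beside -0.028 over all genes. CD44, the hyaluronan receptor, rose by 2.60 on the log2 scale and ITGA5, the fibronectin receptor subunit, by 2.03, while S100A4 and COL3A1 were lower at -3.79 and -3.60. Of the epithelial adhesion genes 1, CDH3, was called, higher at 2.21. Of the other EMT factors 1 was higher and 3 lower of 10 tested. FOXC1 was higher at 1.16, a call lost without untreated PEO4 B replicate 3 (0.98) and under scaling by library totals (0.9995). SNAI3, another SNAI family member, was lower at -2.20, and LEF1, an effector of Wnt signalling, had 0 counts against 33 in untreated cells, at least 18.4-fold lower against a floor of 3 counts over the group. Of the epithelial-state factors 0 were higher and 3 lower of 11, among them EHF at -1.33 and GRHL3 at -3.32, which moved to -4.01 without PEO4 B 6 h replicate 1.

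In PEO1 B at 6 h, where 1.29% of all genes were called higher and 6.83% lower, 2 mesenchymal and matrix genes of 22 tested were higher (MMP9 at 1.62 and CDH11 at 1.35) and 2 lower (CDH6 at -1.94 and NCAM1 at -1.29). Of the epithelial adhesion genes 0 of 21 tested were called. With no fold threshold 10 were higher and 4 lower by edgeR's adjusted p. The share of all genes at that setting was not worked out, so these counts are not read as a result about the list. Among the factors, FOXC2 was lower at -1.92 and EHF at -1.42, and MIR200CHG was higher at 1.66.

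Across the 18 B libraries, the genes whose log2 CPM followed VIM most closely were VIM-AS1 (Pearson r 0.993), PFN2 (0.972) and SPOCD1 (0.966), of 12525 genes compared. For FN1 they were ZBTB47 (0.951), CDAN1 (0.9499) and MPP3 (0.9499), and for SNAI2 PCID2 (0.983), UPF3A (0.980) and KCTD17 (0.971). For SNAI1 they were APH1A (0.965), VDAC1 (0.963) and HADHB (0.962). These points share lines, treatments and depth, so the coefficients describe these libraries only.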

How the data were processed

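RNA was measured by polyA-enriched paired-end sequencing. Per the labels, the authors checked reads with FastQC, trimmed them with fastp, aligned them to hg38 with STAR and counted them with featureCounts, and the deposited values are raw counts per gene in 1 table of 6 libraries (A pair) and 1 of 18 (B pair). Versions and the strand setting were not given in the sources used here. The 10 genes and the wider gene lists were chosen with earlier results of these data known, so no list gives independent support.

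Counts were tested on all genes with edgeR 4.0.16 (TMM, filterByExpr with a minimum count of 10, quasi-likelihood test) in R 4.3.3, each table fitted separately with all its libraries, and p-values were adjusted by Benjamini-Hochberg over all genes tested. A gene was called at an adjusted p under 0.05 and a log2 fold change beyond 1. The study used DESeq2 (1.42.0 here), which was run as an alternative. Levels were TMM-scaled CPM computed here. Of the 10 genes 8 passed the filter in the A table and 9 in the B table. All 10 were named. From each wider list up to 2 called genes with the largest change in each direction and no overlap between groups were named, in the line comparisons and at 6 h of PDS, except 1 that is not reported here; genes likened to a member were the 3 with the highest Pearson r of log2 CPM. COL1A2, CD44 and COL3A1 by library, and THY1, COL1A1, CD68 and CD14, were added after their values were seen. The joint fit of 12 untreated libraries was likewise chosen after seeing the data. Counts between replicates differed by more than sampling noise in every pair (chi-square per degree of freedom 2.13 to 52.1). Intervals cover counting error only. The p-values weigh a difference against a model of the spread between these cultures, estimated over all libraries of a fit. The test was checked on simulated data with a constant spread and with changes placed only in genes of ample counts. That check does not cover members with low counts or with a wide spread, such as VIM in PEO4 B. 2 lines of the A table and 1 of the B table could not be read as a gene with counts and were left out.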

Additional observations from a re-analysis of the deposited data

Results flagged for a closer look

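Responses to PDS that differed between PEO1 B and PEO4 B in the test of the difference were, at 2 h, those of VIM (4.22 on the log2 scale), CDH2 (-1.16) and SNAI2 (-1.12), and at 6 h those of VIM (2.74), FN1 (2.42) and SNAI2 (-1.58), each as PEO4 B minus PEO1 B. Line differences (PEO4 over PEO1) that differed between the A pair and the untreated B pair, in a joint fit chosen after the data had been seen, were those of VIM (-8.91), SNAI2 (-4.75), ZEB1 (-1.98), CDH2 (-1.69), FN1 (-1.63) and SNAI1 (-1.17). The SNAI2 value rested on 2 counts in PEO4 A and was -6.88 without PEO4 A replicate 1. Sequencing depth and rRNA share moved with PDS in both B lines. The pairs differ in BRCA2 status, medium, library preparation and count table. None of these can be told apart from the differences given. Groups of 3 libraries are too small for a test of single outlying libraries.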

How the results depend on the processing

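Library totals or DESeq2 size factors used for scaling, the DESeq2 Wald test and the replicate number as a block left the number of members called as it was in the 10 comparisons and the joint fit, which with its alternatives was added after seeing the data. With no filter on low counts 5 members were called lower in PEO4 A and 5 in the joint fit, where a stricter filter also gave 5. The labels' replicate numbers did not pair the libraries: deviations of same-numbered libraries correlated at -0.07 to 0.09 in the A table (0 of 3 pairs over 0.1) and -0.29 to 0.53 in the B table (7 of 45 pairs), and with the replicate block VIM in PEO4 B at 2 h was at 3.41 on the log2 scale. With no fold threshold, 6 members were called lower in PEO4 A. For untreated PEO4 B over PEO1 B the counts became 2 higher and 4 lower. In PEO1 B they became 2 higher at 2 h and at 6 h. In PEO4 B they became 3 higher and 3 lower at 2 h, and 4 higher and 1 lower at 6 h. From 2 to 6 h in PEO4 B they became 3 higher and 3 lower. The response differences had 3 higher and 3 lower at 2 h, and 3 higher and 2 lower at 6 h. The share of all genes passing the adjusted p alone was not worked out, so these counts have none to be read beside. Fitting only the compared groups gave 0 higher in PEO4 B at 6 h and 1 lower for the 2 h response difference. Leaving out 1 library gave 1 to 2 lower in PEO4 B at 2 h, 1 to 2 higher in PEO4 B at 6 h, 0 to 1 lower from 2 to 6 h, 1 to 2 higher and 1 to 2 lower for the 2 h response difference, 2 to 3 higher for the 6 h response difference (3 without PEO4 B untreated replicate 2), 2 to 3 lower in the untreated B pair, 5 to 6 lower in the joint fit, and 4 to 5 lower in PEO4 A. The last was 5 without PEO1 A replicate 1 or any PEO4 A library, through a member not tested with all 6 libraries.

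Reversals of sign were found for log2 fold changes that passed no test in the reported fit. Under library totals these were ZEB1 in PEO1 B at 2 h (-0.13), SNAI1 in PEO1 B at 6 h (-0.095), TWIST1 in PEO4 B at 6 h (-0.13) and EPCAM in PEO4 B from 2 to 6 h (-0.0028), and under the stricter filter TWIST1 in PEO4 B at 6 h (-0.0011). On leaving out 1 library, TWIST1 ranged from -0.094 to 0.48 in the A pair, -0.21 to 0.073 in the untreated B pair, -0.0016 to 0.15 in PEO1 B from 2 to 6 h, -0.062 to 0.097 in PEO4 B at 6 h and -0.082 to 0.54 in the joint fit. ZEB1 ranged from -0.49 to 0.036 in the untreated B pair, -0.17 to 0.20 in PEO1 B at 2 h, -0.33 to 0.23 in PEO4 B at 2 h, and -0.36 to 0.20 and -0.082 to 0.47 for the 2 h and 6 h response differences. VIM ranged from -1.28 to 0.32 in the untreated B pair, SNAI1 from -0.072 to 0.22 in PEO1 B at 6 h, SNAI2 from -0.40 to 0.12 in PEO4 B at 6 h, and CDH1 from -0.17 to 0.023 for the 2 h response difference. From 2 to 6 h in PEO1 B, CDH2 ranged from -0.18 to 0.018, FN1 from -0.16 to 0.0067 and EPCAM from -0.061 to 0.019, and EPCAM in PEO4 B from -0.0060 to 0.063. The causes were not tested. Depth limits ZEB1, ZEB2 and SNAI2 in PEO4.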
